A study of Mus musculus with 2 samples.

Results

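The genes described here encode splicing factors and heterogeneous nuclear ribonucleoproteins (hnRNPs), measured in mouse haematopoietic stem cells, the source of every blood lineage. A list of 50 genes was fixed by name, and every probe set whose only annotated gene was on the list was taken: 178 probe sets for 47 of the 50 genes, among 18193 annotated genes in all. Hnrnpa3 was read only by probe sets shared with another gene, and no probe set of Srsf7 or Zrsr2 was analysed here. Of the 178 probe sets, 166 were detected, meaning that at least 1 array lay above its floor, the median intensity of that array (25.9 for the knockout and 25.2 for the wild type). The 12 that were not detected belonged to Ddx5, Sf3b2 and Tra2a (2 each) and to Hnrnpc, Hnrnpd, Hnrnpl, Prpf19, Sf3a1 and Srsf1 (1 each). Every one of the 47 genes kept at least 1 detected probe set.

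The study hybridised total RNA of Wip1 knockout stem cells to 1 Affymetrix array and RNA of wild-type stem cells to 1 other array. Both samples came from mice of 3 months. Wip1 is the phosphatase encoded by Ppm1d, a known brake on p53 and DNA damage signalling. The sources used here name neither the knockout allele nor the strain, the sort or the number of animals behind an array.

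Splicing removes introns from new transcripts. SR proteins bind exons and recruit the U1 and U2 small nuclear ribonucleoproteins to the intron ends, while hnRNPs coat nascent RNA and often act against inclusion of an exon. Many of these genes are known to control their own output through alternative "poison" exons or retained introns, so that a single gene can make both a productive mRNA and RNA that stays in the nucleus or is degraded. Mutations in several splicing factor genes, SF3B1, SRSF2, U2AF1 and ZRSR2 among them, are known in human clonal blood disorders. A probe set reads only a short stretch of a transcript, so the probe sets of a gene can differ in which of these RNAs they read. The position of each probe set on its transcript was not known here.

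Neither genotype has a second array, so nothing below is a test and there are no p-values. Values are deposited intensities, and differences are log2 knockout minus log2 wild type after centring. The spread available is that among probe sets that read a single gene, with a pooled SD of 0.22 on the log2 scale across the 5084 genes that had 2 or more probe sets detected. That SD holds no variation that all probe sets of a gene share, whether between animals or between arrays, and the number of arrays limits the precision. In bulk RNA, fewer cells of a type and less RNA per cell cannot be told apart.

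The samples also differed in other transcripts. Stem cell markers such as Kit, Cd34 and Procr were detected (11 of 12 listed), with 7 higher and 4 lower in the knockout. All 9 detected markers of lymphoid progenitors were higher in the knockout (summed intensity 8853 against 3904), while all 5 megakaryocyte markers (534 against 805) and 4 of 5 detected erythroid markers (265 against 378) were lower. Dntt held 5492 and 2228 of the lymphoid sums. Rag1 (28.0 against 19.9) lay above the floor in the knockout only, so its direction followed from the floor. Probe sets of Alas2 and Hba-a1 lay under the floor on both arrays, and probe sets shared between globin genes were not counted. Of 8 granulocyte and monocyte markers 2 were higher and 6 lower (4 and 4 after quantile normalization or loess), with a summed intensity of 10424 against 12113 in which Mpo held 3665 and 5498. The 2 higher ones were Csf1r, 2.64-fold (770 against 294), and Itgam, 1.54-fold (61.9 against 40.6). The 2 dimmer Csf1r probe sets were higher by less, with 1423593_a_at 1.27-fold higher (73.2 against 57.9). Xist was lower in the knockout in its 3 probe sets (-0.86 to -0.58) and the Y-linked Eif2s3y higher (2.23), so the samples differ in sex-linked transcripts too. The targeted gene, Ppm1d, differed by -0.05 and 0.10 in its 2 probe sets. The part of these differences in the values below was not tested.

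At the brightest probe set of each gene, the member transcripts were nearly level between the arrays. None of the 47 members was past 1.5-fold in either direction, against 2.26% of 11442 detected genes higher and 1.57% lower. None was past 2-fold, where the shares over all genes were 0.454% higher and 0.21% lower. Differences ran from -0.29 to 0.37, and 42 of 47 (89.4%) lay within the SD between probe sets, against 66.4% of all detected genes. The brightest probe sets of all 47 members lay above the 75th percentile of both arrays. Of 6692 genes above that percentile on both arrays, 69.3% lay within that SD, while 94 were past 1.5-fold upward and 77 downward. That percentile was 113 for the knockout and 111 for the wild type, while the members' brightest probe sets read 232 to 9443. The 6692 genes were therefore not matched to the members in intensity. The members' median was -0.05 against -0.0031 over all detected genes, with 18 members higher and 29 lower (5652 and 5790 over all detected genes). Neither the median nor the lean to lower values held under intensity-dependent normalization, with a median of 0.02 and 25 members higher after quantile normalization, and 0.0019 and 24 higher after loess.

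**Figure D1:**
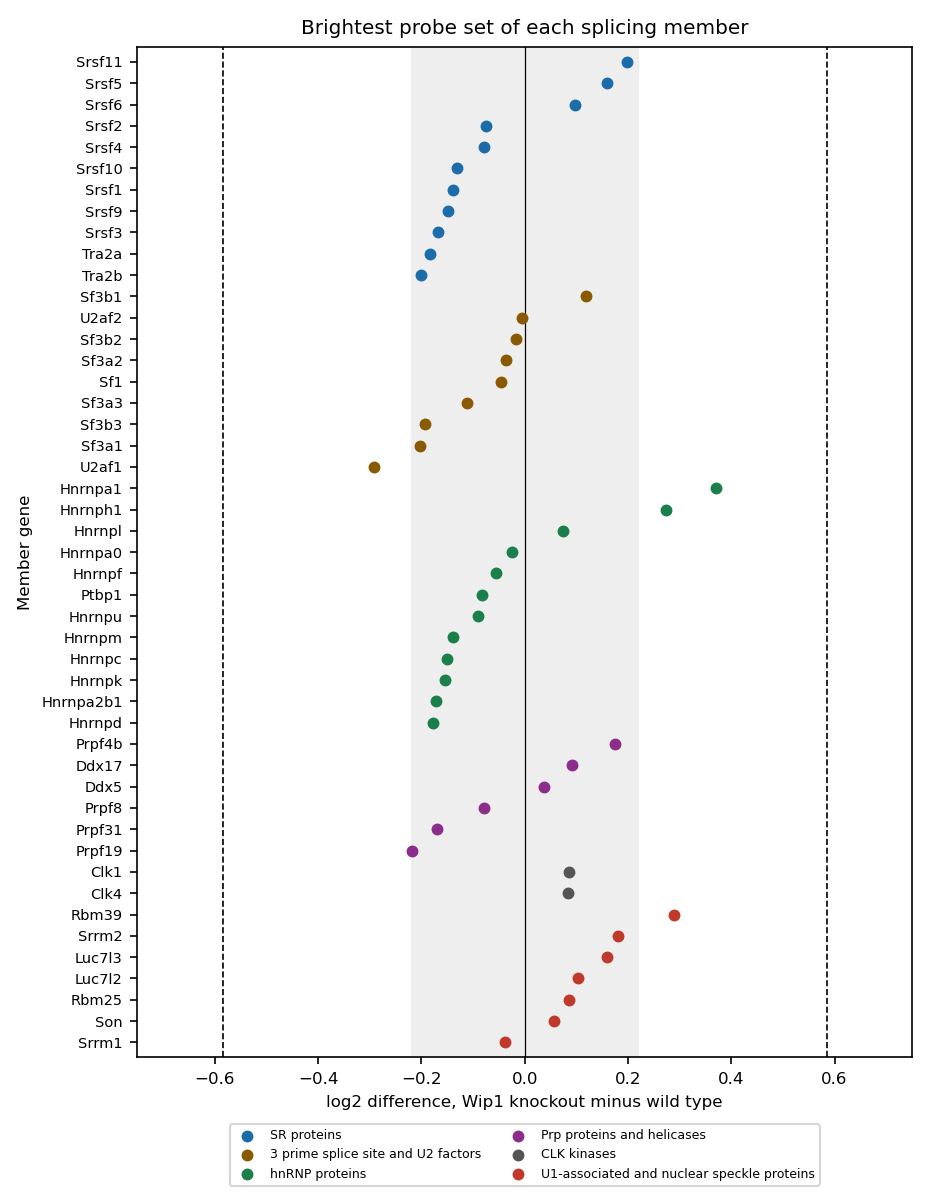
Log2 difference (knockout minus wild type) at the brightest probe set of each of the 47 members, 1 point per gene, coloured by role. Grey marks 1 SD between probe sets of a gene (0.22) and dashed lines mark 1.5-fold; all points lie between the dashed lines, from -0.29 for U2af1 to 0.37 for Hnrnpa1.

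By role class, 6 of 7 genes of the U1 complex and nuclear speckles were higher in the knockout (median 0.10), against 49.4% of all detected genes. Lower in the knockout were 8 of 11 SR protein genes (median -0.13), 8 of 9 genes for U2 and 3' splice site factors (-0.05) and 9 of 12 hnRNP genes (-0.09). The tally of U2 and 3' splice site factors turned with the normalization, to 4 of 9 lower after quantile normalization and after loess, and that of the hnRNP genes moved to 7 and 8 of 12. The SR protein tally stayed at 8 of 11 lower after both, and all 7 U1 and speckle genes were then higher. The Prp proteins and helicases were divided, 3 higher and 3 lower, and both CLK kinases were higher by less than 0.10. Whether the classes differ from each other could not be tested.

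Dimmer probe sets of a few of these genes differed far more than the brightest ones. Of 119 detected dimmer probe sets, 10 were at least 1.5-fold higher in the knockout and none at least 1.5-fold lower. Among all 8464 dimmer probe sets, 4.05% were that much higher and 1.35% lower, against 8.40% and 0 among the members. Counting every detected probe set, the same 10 of 166 member probe sets were past 1.5-fold, all higher, against 3.02% higher and 1.48% lower over 19906 detected probe sets. They belonged to Tra2a, Tra2b, Srsf11, Hnrnpu, Luc7l2, Rbm25, Rbm39 and Srrm2. The bulk of dimmer probe sets showed no such difference, with 64 higher, 55 lower and a median of 0.02.

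**Figure D2:**
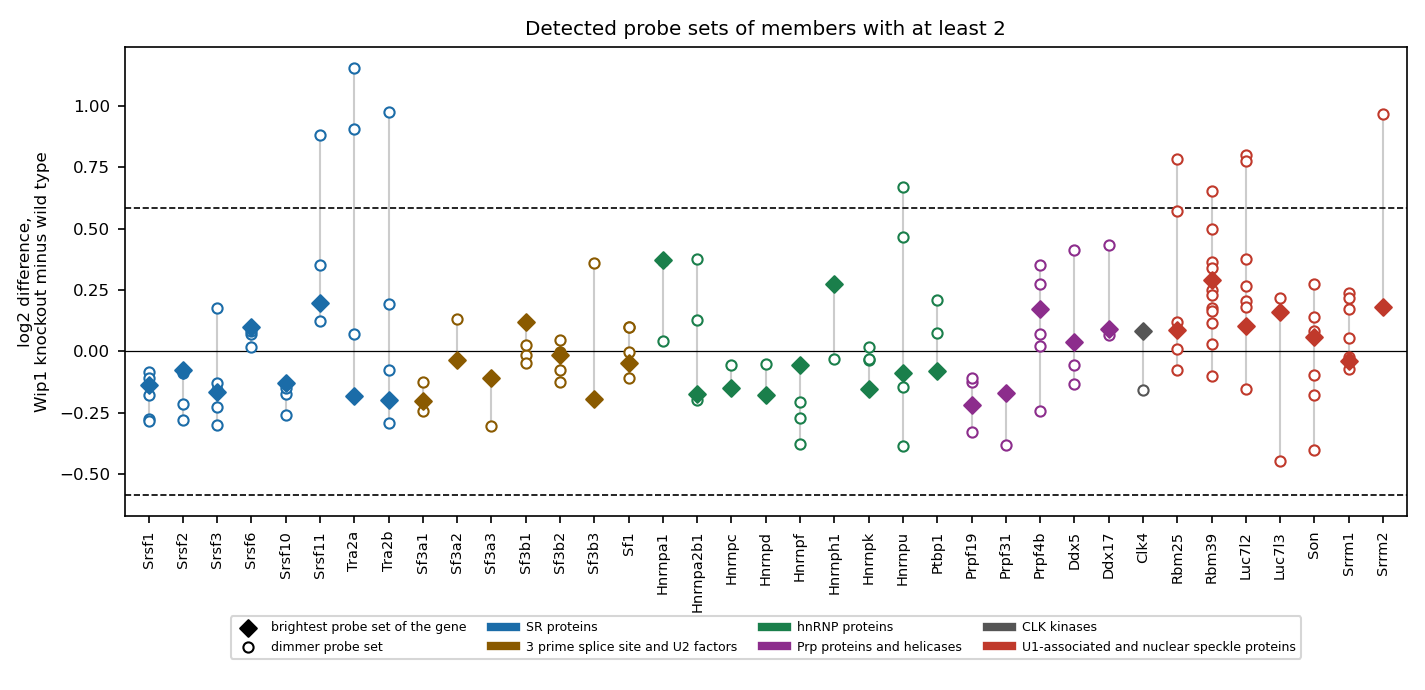
Log2 difference (knockout minus wild type) of every detected probe set of the 37 members with at least 2; diamonds are the brightest probe set of a gene, open circles its dimmer ones, and dashed lines mark 1.5-fold. The 10 circles above the upper line, 1.15 at most, belong to 8 genes, and no point lies below the lower line.

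Tra2a and Tra2b encode a pair of SR-like proteins that bind exonic enhancers and promote inclusion of exons. The brightest Tra2a probe set read 689 in the knockout and 787 in the wild type, a difference of -0.18. A second Tra2a probe set read 171 and 164 (0.07). Probe set 1442886_at read 119 in the knockout against 53.8 in the wild type, 2.22-fold higher, and 1455933_at read 61.7 against 33.2, 1.87-fold higher. The annotation gives these probe sets different source sequences, and both went the same way while the brightest went the other. The other 2 Tra2a probe sets lay under the floor on both arrays and went opposite ways. Of these, 1439043_at read higher in the knockout (18.9 against 8.75) and 1459753_x_at read slightly lower.

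Tra2b showed the same split. Its brightest probe sets were slightly lower in the knockout, at 1520 against 1758 (-0.20) and 1458 against 1797 (-0.29). Probe set 1441466_at read 178 in the knockout and 91.2 in the wild type, 1.96-fold higher. The remaining Tra2b probe sets were close to level, with 57.3 against 50.6 (0.19) and 27.5 against 29.2 (-0.08). Thus 1 of 5 Tra2b probe sets and 2 of 4 detected Tra2a probe sets were past 1.5-fold.

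The promoters of Tra2a and Tra2b are shown because these genes had the largest within-gene contrasts of all members. The 250 bases before each annotated start (RefSeq, GRCm38.p6, 5' to 3' on the minus strand) lie at chr6:49264053-49264302 for Tra2a and at chr16:22266006-22266255 for Tra2b. Capitals mark GGGCGG, a GC box, or its reverse complement CCGCCC.
Tra2a: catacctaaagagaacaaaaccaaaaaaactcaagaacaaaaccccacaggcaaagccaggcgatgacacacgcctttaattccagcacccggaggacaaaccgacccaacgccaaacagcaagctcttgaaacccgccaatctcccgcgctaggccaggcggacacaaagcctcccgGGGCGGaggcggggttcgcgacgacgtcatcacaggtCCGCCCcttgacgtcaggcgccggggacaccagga
Tra2b: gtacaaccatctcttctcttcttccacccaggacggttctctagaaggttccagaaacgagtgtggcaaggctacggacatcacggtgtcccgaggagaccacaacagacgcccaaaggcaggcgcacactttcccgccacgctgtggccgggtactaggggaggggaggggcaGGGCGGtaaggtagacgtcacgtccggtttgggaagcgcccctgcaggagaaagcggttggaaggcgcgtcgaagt

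Tra2a held 2 such matches and Tra2b held 1, with 20 and 19 CG dinucleotides. GC-rich promoters were common among the members. Of the 50 genes 48 were matched to a RefSeq promoter of 300 bases (250 before to 50 after the start), the exceptions being Clk1 and U2af2. GGGCGG on either strand was in 62.5% of these 48, against 46.3% of 17491 protein-coding genes and 35.9% of all 27025 promoters. CCAAT was in 54.2% against 39.0% and 37.9%, and TATAAA in 10.4% against 13.3% and 14.2%. The median GC content was 61.7%, against 56.3% for protein-coding genes. These are descriptions of the letters in that window, not of binding.

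Among the other SR protein genes, Srsf11 was the only one with a probe set past 1.5-fold. Its brightest probe set read 1340 in the knockout and 1176 in the wild type (0.20), and the next 505 and 467 (0.12). Probe set 1430077_at read 165 against 90.3, 1.84-fold higher, and 1439095_at read 146 against 115 (0.35). All 4 Srsf11 probe sets were therefore higher in the knockout, by very different amounts.

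The classical SR protein genes had no probe set past 1.5-fold and went both ways. Srsf1, the founding SR protein, was lower in all 6 detected probe sets (-0.28 to -0.08), with 3059 against 3391 in the brightest. Srsf2 was lower in all 4 (-0.28 to -0.08) and Srsf10 in all 4 (-0.26 to -0.13). Srsf3, the smallest SR protein, was lower in 5 of 6 (1999 against 2260 in the brightest), and its only higher probe set, 1438215_at, read 304 against 271 (0.18). Srsf6 was higher in all 4 probe sets by at most 0.10. A source sequence is shared by 3 of the Srsf10 and by 3 of the Srsf6 probe sets. Some Srsf1 and Srsf3 probe sets share one too, so these tallies do not count independent readings. Srsf4 (-0.08), Srsf9 (-0.15) and Srsf5 (0.16) had 1 probe set each.

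The genes of 3' splice site recognition differed little and had no probe set past 1.5-fold. U2af1, whose protein binds the AG at the intron end, had the lowest difference of all brightest member probe sets, with 1701 in the knockout against 2096 in the wild type (-0.29, its only probe set). Its partner U2af2 was level (817 against 826, -0.01). Sf3b1, the U2 component that holds the branch point, read 2241 against 2078 in its brightest probe set (0.12) and between -0.05 and 0.02 in the other 3. Sf3a1 was lower in its 3 detected probe sets (-0.24 to -0.13), and Sf3a3 in both (-0.11 and -0.30). Sf3a2 (-0.04), Sf3b2 (-0.02) and the branch point binding protein gene Sf1 (-0.05) were near 0 in their brightest probe sets. Sf3b3 was divided, with 620 against 714 (-0.19) in the brightest and 215 against 169 (0.36) in the dimmer probe set, a contrast of 0.55 that lay just under 1.5-fold.

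Of the hnRNP genes, Hnrnpu had 1 probe set past 1.5-fold. Hnrnpu encodes the scaffold attachment factor of the nuclear matrix. Its 3 brighter probe sets were lower in the knockout, with 2298 against 2464 (-0.09), 1843 against 2053 (-0.15) and 805 against 1060 (-0.39). The 2 dimmest probe sets went the other way, 1434391_at with 309 against 225 (0.47) and 1434390_at with 75.5 against 47.9, 1.59-fold higher. The annotation gives these 2 probe sets the same source sequence, so they are not independent readings.

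Hnrnpa1, which packages mRNA and antagonises SR proteins, had the highest difference among brightest member probe sets. It read 2311 in the knockout and 1801 in the wild type (0.37, _a_at class), while the next brightest probe set (_x_at class) read 1715 and 1678 (0.04). Both classes can match several transcripts or related genes. The dimmest Hnrnpa1 probe set, from the same source sequence as the brightest, again gave 0.37 (113 against 87.8). The 3 probe sets shared by Hnrnpa1 and related genes differed by -0.17 to 0.08, so the higher reading was not seen in all probe sets that match this gene. Hnrnph1 read 3223 against 2683 in its brightest probe set (0.27), while its other detected probe set, of the _x_at class, was at least 0.03 lower (21.5 against 26.6, the knockout value under the floor).

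The other hnRNP genes had no probe set past 1.5-fold. Hnrnpf was lower in all 4 probe sets (-0.38 to -0.06), Hnrnpc in both that were detected (-0.15 and -0.06) and Hnrnpd in both (-0.18 and -0.05). Hnrnpa2b1 was divided, with 3985 against 4522 (-0.17) in the brightest and 319 against 247 (0.38) in the dimmest. Hnrnpk lay between -0.15 and 0.02 over 4 probe sets. Hnrnpm (-0.14), Hnrnpa0 (-0.02) and Hnrnpl (0.07) had 1 detected probe set each, and the polypyrimidine tract binding protein gene Ptbp1 gave -0.08 in its brightest and up to 0.21 in its dimmest. The 4 probe sets shared by Hnrnpa3 and 1 related gene differed by -0.25 to 0.17.

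The genes of the U1 complex and nuclear speckles held 5 of the 10 probe sets past 1.5-fold. Luc7l2 encodes a U1-associated protein that affects the choice of 5' splice sites. Its brightest probe set was near level at 974 in the knockout and 914 in the wild type (0.10). Probe set 1436766_at read 613 against 354, 1.74-fold higher, and 1436767_at read 267 against 157, 1.71-fold higher. Both rest on the same source sequence, and their differences were 0.80 and 0.78. Of the other 5 detected probe sets, 3 lay between 0.18 and 0.27. The remaining 2 had 1 array under the floor and give only bounds, at least 0.37 higher in 1458423_at and at least 0.15 lower in 1445717_at on the log2 scale.

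Srrm2, a large scaffold protein of nuclear speckles, read 3256 in the knockout against 2891 in the wild type in its brightest probe set and 523 against 464 in the next (0.18 in each). The dimmest, 1437638_at, read 429 against 221, 1.95-fold higher. Rbm25, which promotes use of some 5' splice sites, was level in its 2 brighter probe sets (1140 against 1082, and 342.4 on both arrays). Rbm25 probe set 1437862_at read 236 against 138, 1.72-fold higher, and 1425522_at was at least 0.57 higher on the log2 scale, since its wild-type value lay under the floor.

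Rbm39, an RNA-binding cofactor of U2AF, had 12 detected probe sets, the most of any member, and 11 were higher in the knockout. The brightest read 1645 against 1356 (0.29). Probe set 1439316_at read 328 against 210, 1.57-fold higher. Its contrast with the brightest probe set was 0.36, below 1.5-fold. Luc7l3 was higher in its 2 brighter probe sets (0.16 and 0.22) and lower in 1437570_at, with 36.3 against 49.8 (-0.45). Son and Srrm1, also speckle proteins, had 7 probe sets each, between -0.40 and 0.27 for Son and between -0.07 and 0.24 for Srrm1.

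Prp proteins, helicases and CLK kinases had no probe set past 1.5-fold. Prpf8, the core protein at the catalytic centre of the spliceosome, read 1110 against 1180 (-0.08). Prpf19 was lower in all 4 detected probe sets (-0.33 to -0.11) and Prpf31 in both (-0.17 and -0.38). The kinase gene Prpf4b lay between -0.24 and 0.35 over 6 probe sets. Ddx5 and Ddx17, paralogous RNA helicases, were level in their brightest probe sets (0.04 and 0.09), with a dimmer probe set of each higher, 2716 against 2057 for Ddx5 (0.41) and 81.5 against 60.8 for Ddx17 (0.43). Clk1, a kinase that phosphorylates SR proteins and whose transcripts are known to retain introns, had 1 probe set (2111 against 2004, 0.09). Clk4 gave 0.08 and -0.16.

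**Figure D3:**
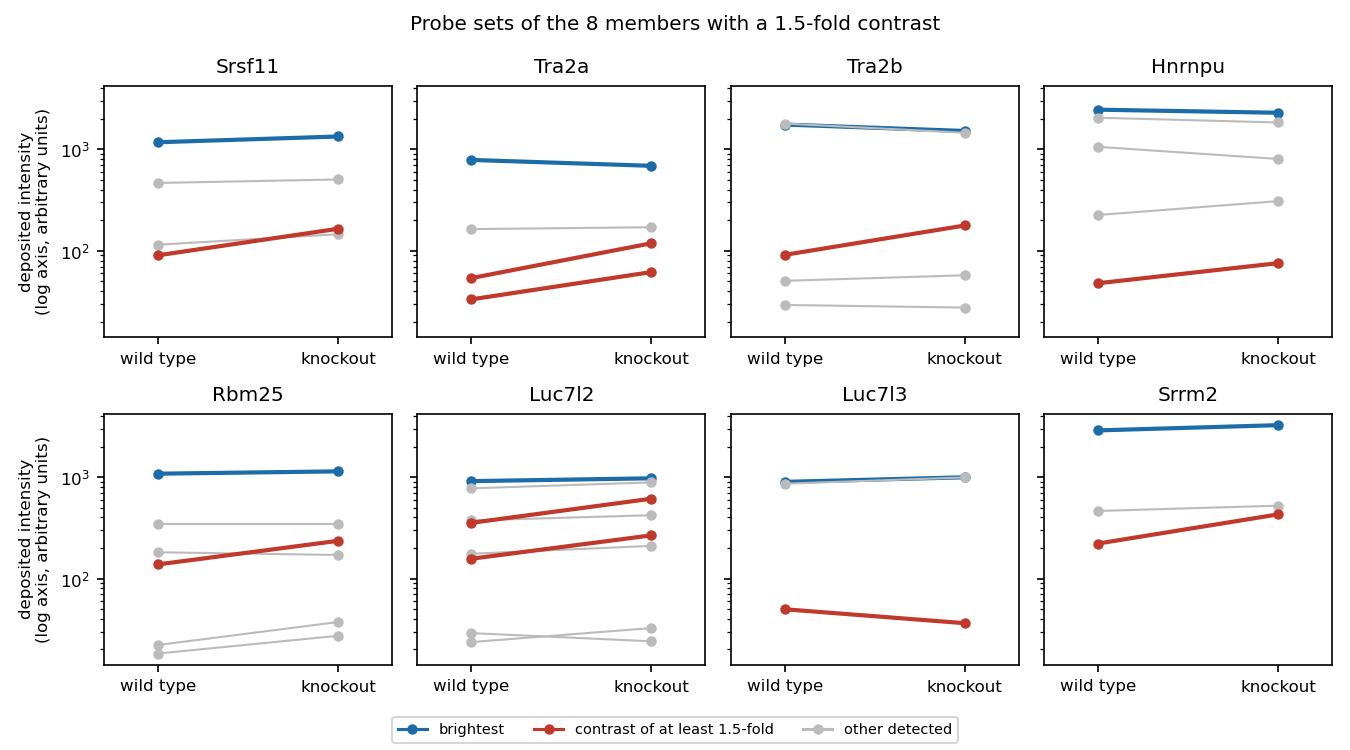
Deposited intensity (log axis, arbitrary units) on the wild-type and the knockout array for each detected probe set of the 8 members with a contrast of at least 1.5-fold, 1 line per probe set. Red lines (contrast of at least 1.5-fold) climb from wild type to knockout in 7 genes and descend in Luc7l3, while the blue lines (brightest) are nearly flat.

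The contrast between probe sets of a gene was taken as the difference of a dimmer probe set minus the difference of the brightest, so that the constant response of each probe set cancels. Of 119 member contrasts, 9 were at least 1.5-fold in favour of the knockout and 1 at least 1.5-fold the other way, 7.56% and 0.84%. Over all 8464 contrasts these shares were 3.53% and 1.74%. The 9 contrasts came from 7 genes: Tra2a (1.34 and 1.09), Tra2b (1.17), Srrm2 (0.78), Hnrnpu (0.76), Luc7l2 (0.70 and 0.67), Rbm25 (0.70) and Srsf11 (0.68). The opposite one was Luc7l3 (-0.61). By gene, 7 of 37 members with a dimmer probe set (18.9%) had such a contrast, against 5.29% of 5084 genes, but members carried more dimmer probe sets (3.22 per gene against 1.66). The median contrast was 0.01 for the members and -0.0010 for all genes, and 62 of 119 (52.1%) were above 0, against 49.7%, so most member contrasts were small and went both ways. This median turned to -0.02 after quantile normalization, -0.01 after loess and -0.02 with a floor at the 75th percentile, and 56 and 57 of 119 and 43 of 91 contrasts were then above 0. With the floor at the 75th percentile of each array, 5 of 91 member contrasts were past 1.5-fold (5.49%, against 1.71% of all), and those of Tra2a 1442886_at (0.29) and Srsf11 (0.39) were not among them. Tra2b 1441466_at (0.89) was among the 5. Its contrast and those of Tra2a 1442886_at and Srsf11 were then bounds, since their wild-type values lay under that floor. Tra2a 1455933_at and Hnrnpu 1434390_at lay under that floor on both arrays and gave no contrast. Without probe sets of the _a_at, _s_at and _x_at classes the 1.5-fold count was 9 of 54 (16.7%, against 4.95%); 1441466_at was then the brightest Tra2b probe set, and Tra2b itself was past 1.5-fold.

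**Figure D4:**
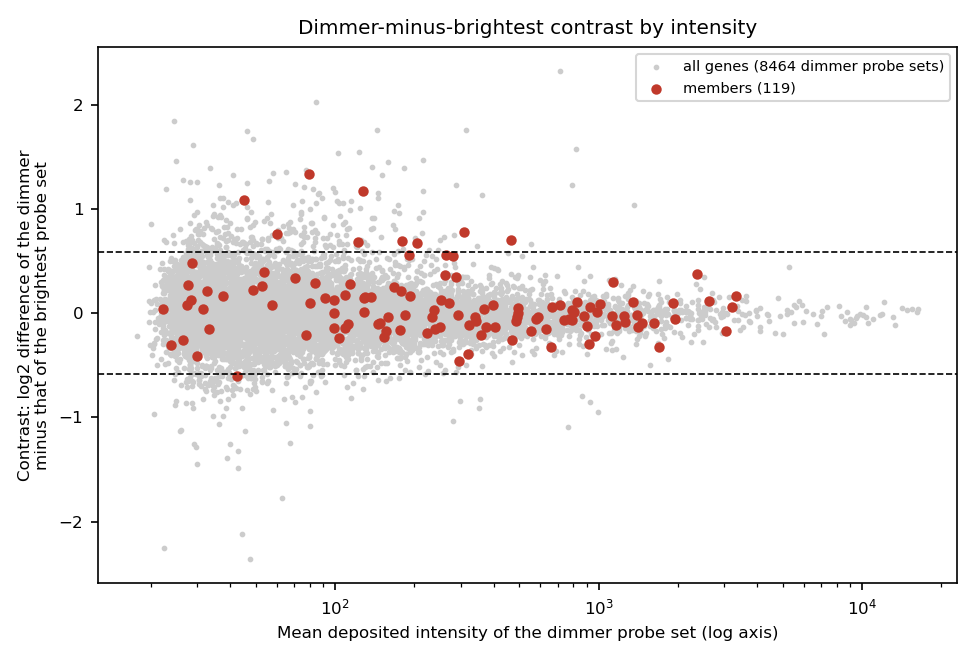
Contrast (log2 difference of a dimmer probe set minus that of the brightest of its gene) against mean deposited intensity (log axis) for all 8464 dimmer probe sets in grey and the 119 of members in red; dashed lines mark 1.5-fold. Of the red points 9 lie on or above the upper line, up to 1.34 for Tra2a, and 1 below the lower line, Luc7l3 at -0.61.

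The 9 member contrasts past 1.5-fold in favour of the knockout were mostly alike in probe set class and source. All 9 were of the plain _at class, designed to match a single transcript: 9 of 73 members of that class (12.3%), against 4.48% of 5846 _at probe sets of other genes. Among the _a_at, _s_at and _x_at classes, which match several transcripts or related genes, 0 of 46 member contrasts were that high, against 1.12% of other genes. By intensity, 6 of 72 member contrasts between 100 and 1000 were that high (8.33% against 2.08%) and 3 of 28 under 100 (10.7% against 4.63%). None of 19 over 1000 was, against 0.283% in other genes. By source sequence, 8 rested on expressed sequence tags, single-pass reads of cDNA ends (8 of 70, 11.4% against 4.55%), and 1 on a longer mRNA or cDNA record (1 of 33, 3.03% against 2.20%). None of 16 without a listed source was that high, against 1.75% in other genes. By drop from the brightest probe set of the gene, 8 of 68 member contrasts over 4-fold dimmer were that high (11.8% against 5.59%). At 4-fold or less, 1 of 51 was (1.96% against 2.26%). The larger drop held 68 of 119 member contrasts but 3041 of 8345 in other genes. The high contrasts of other genes also lay mostly in these groups: 262 of 290 in the _at class and 213 of 290 on tags. This grouping by class, intensity, source and drop from the brightest was made after the values had been seen.

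Probe sets with no listed gene were also more often higher than lower in the knockout. Of 2816 such detected probe sets, 289 were past 1.5-fold higher in the knockout and 23 lower (10.3% and 0.817%), with a median difference of 0.10. Whether they read the same kind of RNA as the dimmer member probe sets was not tested.

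**Figure D5:**
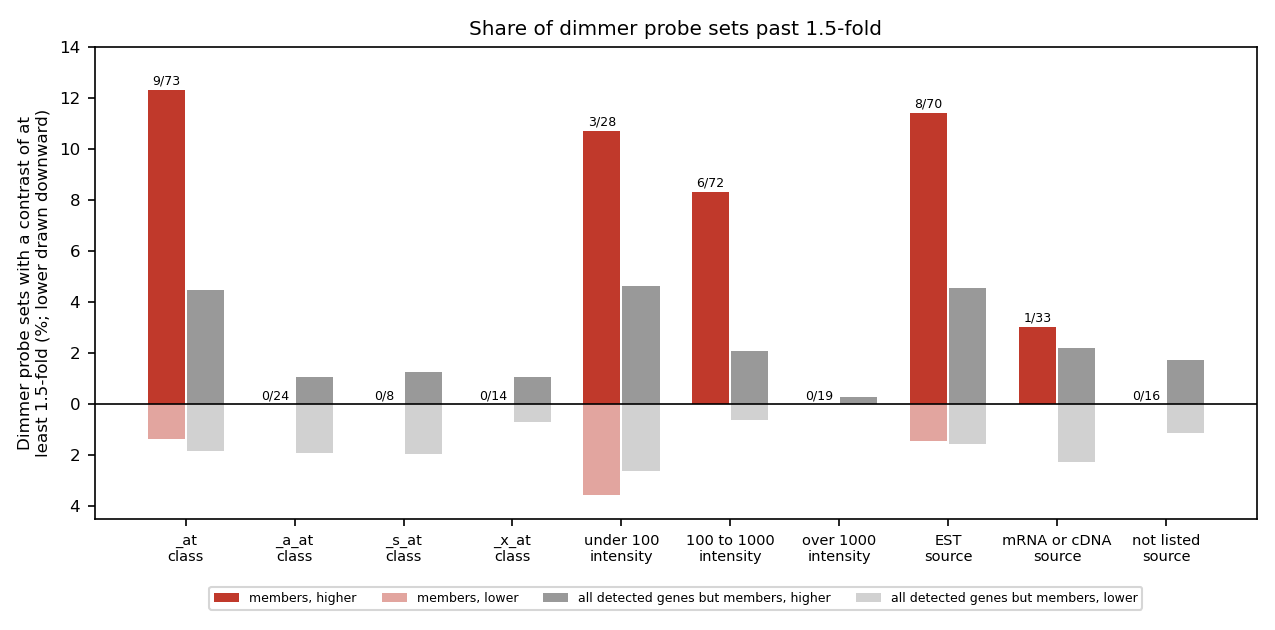
Percent of dimmer probe sets with a contrast of at least 1.5-fold, by probe set class, intensity and source sequence, for members (red) and all other genes (grey); higher is drawn upward and lower, in pale colour, downward, and labels give the members' higher counts over their number. Members stand at 12.3% in the _at class and 11.4% among tags, against 4.48% and 4.55% for other genes.

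Other genes of the splicing machinery were counted from 4 further lists, which hold 121 detected genes of 141. Of 29 detected snRNP protein genes, which build the U1, U2, U4, U5 and U6 particles, 25 were lower in the knockout and 4 higher (median -0.12), or 21 and 22 lower after quantile normalization and loess. Snrpa1 (719 against 1016, -0.49) and Snrpd3 (2346 against 3153, -0.42) were the lowest, and Lsm3 (0.13) and Txnl4a (0.09) the highest. Genes of spliceosome assembly and catalysis gave 24 lower and 12 higher of 36 (median -0.10), from the helicase gene Dhx8 (-0.47) and Rnpc3 (-0.35) to Prpf39 (0.35) and Cwc27 (0.14). Exon junction and decay genes were balanced, 5 higher and 4 lower, from Rbm8a (-0.20) and Smg5 (-0.14) to Smg1 (0.24) and Smg9 (0.17).

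The other splicing regulators leaned the other way, with 31 of 47 higher (median 0.07). Sfpq, a paraspeckle protein, was the only gene of the 4 lists past 1.5-fold in its brightest probe set, with 1506 in the knockout against 883 in the wild type (0.78). Its other probe sets included 4 between -0.25 and -0.01. Rbm5 (997 against 706) differed by 0.51, and Hnrnpr (-0.29) and Hnrnpll (-0.22) were lowest. Across the 4 lists together, 5 of 177 dimmer probe sets had a contrast of at least 1.5-fold in favour of the knockout (2.82%, against 7.56% among the members): Snrpc (0.92), Celf2 (0.91), Qk (0.81), Snrnp70 (0.75) and Elavl1 (0.59). In the opposite direction there were 5, of which 4 were Sfpq and 1 Pnn (-0.67).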

How the data were processed

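RNA of Wip1 knockout and wild-type mouse haematopoietic stem cells was measured on 1 array each. The deposited table holds linear summarised intensity values made by the authors, 1 for each of 45037 probe sets on each array. MAS5, without a version, stands alone in the submitters' processing notes; other steps were not stated there. Exactly 2535 probe sets (5.63%) held the same value on both arrays, 1 of them a member's, and the summarisation method was not settled here. The deposited table gives no detection calls.

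Probe sets were named through the platform annotation: 34945 had 1 gene, 932 had several and 9160 were not listed. Intensities were floored at each array's median, converted to log2 and centred on the median difference of detected probe sets with 1 gene (a shift of -0.01). A difference with 1 array under the floor is a bound (5 member probe sets). The brightest probe set of a gene has the highest mean log2 intensity. Folds of 1.5 and 2 were fixed sizes, not tests. The calculation was tested on simulated data with python 3.11.15, pandas 2.3.3 and statsmodels 0.14.6. The simulated noise was the same at every intensity, and only dimmer probe sets above a fixed intensity were shifted. The simulation therefore does not cover the dimmest contrasts.

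Named were the members of each role with the largest differences and every member with a contrast of at least 1.5-fold, and for the 4 further lists the 2 largest differences each way. The remaining members were given for completeness. Members, role classes and lists were chosen with earlier results of these data known. Protein sequences and the sequences of the probes were not used here.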

Additional observations from a re-analysis of the deposited data

How the results depend on the processing

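No paired analysis was possible because each genotype has 1 array. Leaving out a replicate was not possible for the same reason. Centring left every contrast as it was, by construction. The counts at the brightest probe set stayed at 0 past 1.5-fold and 2-fold under each other centring, normalization, floor and offset and with the median over probe sets of a gene. Without _s_at, _x_at and _a_at probe sets 1 of 41 members, Tra2b, was past 1.5-fold higher. At a fold size lower than 1.5, fixed as an alternative, 1 brightest probe set was higher and 0 were lower. Of all member probe sets, 24 were then higher and 6 lower. No share over all detected genes, probe sets or contrasts was counted at that lower fold size. The member counts given for it, here and below, therefore cannot be compared with a background. Without a floor 1 member probe set was past 1.5-fold lower, at very low intensity. The members' median differences and contrasts near 0 changed sign with the normalization or floor. Each of these moves was below 0.22. Contrasts above 0 numbered 30 of 54 without the 3 classes, a count that falls because fewer probe sets remain. Contrasts of at least 1.5-fold in favour of the knockout numbered 5 with a floor at the 75th percentile and 18 at the lower fold size. Those the other way numbered 0 with that floor and with the array median as an offset, 3 without the 3 classes and 5 at the lower fold size. After loess and quantile normalization 9 and 8 were in favour of the knockout, against 3.05% and 2.94% of all contrasts. Over 86 values of the 10 named contrasts under alternatives, 0 changed sign. Many of these values could not differ: the other centrings, the floor at the 25th percentile and no floor each gave the main value. The 10 were also picked for lying far from 0, so this count does not measure stability. Dim probe sets are the limit: a floor near their signal shrinks a difference, and no replicate array gives its error.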

Other observations

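Outside the splicing genes, the stem cell transcription factor gene Meis1 showed a contrast of the same form. Its dimmer probe set 1443260_at read 158 in the knockout against 45.2 in the wild type (1.82 on the log2 scale), while the brightest differed by -0.21. This gene was singled out after its values had been seen. Of the 26 groups of 2 or 3 member probe sets that share a source sequence, differences spanned at most 0.60 within a group, the widest being Rbm39 (-0.10 to 0.50). That span is itself past 1.5-fold (0.58 on the log2 scale), the size used to name contrasts. Where a gene holds such a group, a tally over its probe sets does not count independent readings.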
